A study of Drosophila melanogaster with 9 samples.

Results

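The digestive lysozymes of Drosophila melanogaster are described here as the genes of the deposited count table whose symbol is Lys followed by 1 capital letter. There are 7 of them among 14865 listed genes, namely LysB, LysC, LysD, LysE, LysP, LysS and LysX, all in a cluster on the left arm of chromosome 3. The members were chosen by name, and the family itself was selected on earlier log2 fold changes of the mutant and control comparison, that of LysC among them, so the values below describe the members and are no independent evidence. Poly(A) RNA of whole flies was sequenced from 4 libraries of E78A mutants (E7818.37 in the authors' sample sheet) and 5 of controls (w1118 there). Flies of both genotypes were 8 days into adult life and had been kept on food with 8% yeast and 9% sugar. The gene Eip78C encodes E78A, a nuclear receptor, which the series examines for its part in the uptake of dietary fat by the intestine. The sources used here give neither the sex of the flies, the number of flies in a library, the lesion of the allele nor the genotype at white in the mutants, and do not say whether libraries came from separate crosses. The p-values therefore measure the spread between these libraries, which may be technical. Though no label gives the sex, markers of the male accessory gland were high in every library, as given below, so each held males.

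Lysozymes of this family cleave the sugar backbone of peptidoglycan, the polymer of the bacterial cell wall. In Drosophila several of them are known as gut enzymes, secreted where bacteria taken in with the food are broken down, and not as genes induced by infection. LysB, LysD and LysE are near-identical genes of the larval and adult midgut. LysP is known from the adult salivary gland, LysS from the gastric caeca of the larva, and LysX from the midgut around the end of larval life. LysC is annotated as a pseudogene.

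Library totals ran from 16556267 to 19093675 counts, and 13274 genes were tested. For 4 libraries (mutant replicates 3 and 4, control replicates 4 and 5) the genotype tag names the genotype opposite to that of the title. The authors' sample sheet disagreed with 0 titles, and the titles were used. Eip78C showed no fall in the libraries labelled mutant, at 12.4, 8.86, 10.8 and 10.6 CPM (counts scaled to a common effective library size) in the mutants, against 8.57, 10.4, 8.94, 15.6 and 9.60 CPM in the controls (log2 fold change of mutant over control 0.00467, adjusted p = 0.993 in edgeR). This checks the labels only if the allele removes transcripts of the gene. No 2 replicates of a group agreed within sampling noise (chi-square per degree of freedom from 17.3 to 42.9).

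On 3L the 7 genes span 33500 bases, from 1194739 to 1228238 in the coordinates of the authors' annotation sheet, which all 7 share with a later Ensembl annotation of BDGP6. Each has a single exon. LysX lies first (1194739 to 1195302, minus strand), then LysB (1207371 to 1207981, plus), LysC (1210485 to 1210726, plus), LysD (1210717 to 1211196, minus), LysE (1212827 to 1213406, plus), LysP (1218082 to 1218696, minus) and LysS (1227747 to 1228238, plus). LysB, LysD, LysE and LysS each encode 140 residues, LysP 141 and LysX 142, while LysC has no coding sequence and is 242 bases long. The last 10 bases of LysC overlap the 3′ UTR of LysD on the opposite strand. All but LysX lie inside mwh (1200786 to 1232700, plus), a gene of wing hair formation, and overlap 0 of its exon bases. Because LysB, LysD and LysE are near-identical and how multiply mapping reads were handled was not given in the sources used here, any split of counts between them, and between them and LysC, is uncertain.

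Of the 6 members that passed the low-count filter, LysB, LysD and LysE fell and LysC rose in the mutants, while LysP and LysX did not pass the test. LysS, with 2 to 11 counts a library, did not pass the filter. Over all tested genes 0.927% were called lower and 0.708% higher (edgeR, adjusted p under 0.05 over all tested genes), together 1.63%. DESeq2 called 3.44% in either direction, edgeR with the replicate block called 3.89%, and 3.47% were called in the authors' deposited table, all with the same 4 members. The 5 libraries whose title and tag agree gave 0.157% of all genes as called and 0 members. Libraries of the groups did not overlap for the same 4 members, against 3.37% of all tested genes with every mutant library lower and 2.79% with every mutant library higher. The median log2 fold change was -0.79 over the 6 tested members and -0.0024 over all tested genes.

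**Figure D1:**
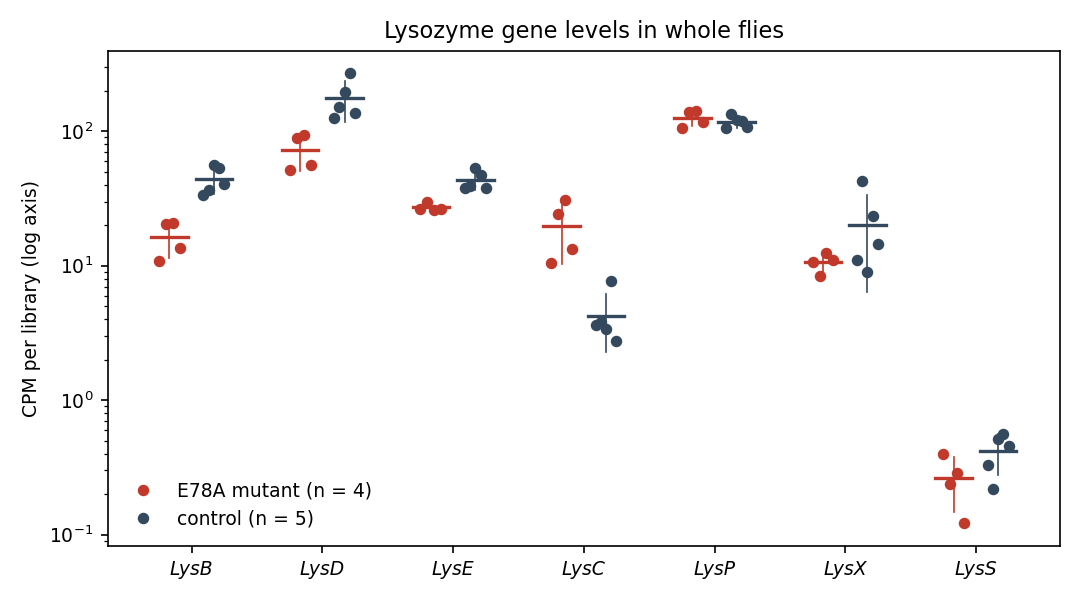
CPM on a log axis of the 7 lysozyme genes, 1 point per library, E78A mutants (n = 4) left of controls (n = 5), with the mean as a horizontal bar and the SD as a vertical line. The mutant points of LysB, LysD and LysE lie below all control points, those of LysC above all of them, and those of LysP, LysX and LysS overlap the controls.

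LysD, the most abundant of the near-identical midgut genes, fell. Its mutant libraries, replicates 1 to 4, held 51.4, 88.8, 94.3 and 56.7 CPM, against 125, 152, 197, 270.5 and 137 CPM in control replicates 1 to 5. The highest mutant library lay below the lowest control library, and mutant replicates 1 and 4 were the lowest of all. The means were 72.8 ± 21.9 CPM in the mutants (SD, n = 4) and 176 ± 59.3 CPM in the controls (SD, n = 5), a level 2.42-fold lower in the mutants (log2 fold change -1.28, SE 0.25, edgeR adjusted p = 0.0215). The call ended without mutant replicate 4 (-1.17, edgeR adjusted p = 0.0856) and without control replicate 3 (-1.23, edgeR adjusted p = 0.0586). In the fit with the replicate block, which uses the pairs of the sample sheet, LysD had -1.21 (SE 0.10, edgeR adjusted p = 0.000357).

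LysB, which encodes a protein of the same length, also fell. It was at 10.9, 20.6, 20.8 and 13.5 CPM in the mutants, against 33.5, 36.9, 56.3, 53.7 and 40.5 CPM in the controls. Mutant replicates 1 and 4 were again the lowest, and the groups did not overlap. The means were 16.4 ± 5.03 CPM in the mutants and 44.2 ± 10.2 CPM in the controls, 2.69-fold lower in the mutants (log2 fold change -1.43, SE 0.21, edgeR adjusted p = 0.00418).

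LysE, the third of these midgut genes, fell with a fitted value nearer to 0, at 26.3, 30.0, 25.9 and 26.4 CPM in the mutants, against 38.2, 39.5, 53.5, 47.2 and 38.0 CPM in the controls. Its mutant libraries were close together, with a coefficient of variation of 7.08%, against 30.6% for LysB and 30.1% for LysD in the same libraries. The means were 27.2 ± 1.92 CPM in the mutants and 43.3 ± 6.88 CPM in the controls (log2 fold change -0.67, SE 0.11, edgeR adjusted p = 0.00872). LysE stood at 242%, 146%, 124% and 196% of LysB in the mutants, against 114%, 107%, 95.1%, 88.0% and 93.7% in the controls. The groups did not overlap in this ratio, which was chosen after its values were seen and was not tested. For LysB as a percentage of LysD they did, at 21.2%, 23.2%, 22.0% and 23.8% in the mutants and 26.7%, 24.3%, 28.6%, 19.8% and 29.6% in the controls.

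LysC went the other way. The pseudogene was at 10.5, 24.4, 30.6 and 13.4 CPM in the mutants, from 184 to 531 counts a library, against 3.59, 3.85, 3.38, 7.67 and 2.74 CPM in the controls, from 48 to 151 counts. All mutant libraries lay above all control libraries, with mutant replicates 2 and 3 the highest and control replicate 4 the highest of its group. The means were 19.7 ± 9.42 CPM in the mutants and 4.25 ± 1.96 CPM in the controls, 4.64-fold higher in the mutants (log2 fold change 2.20, SE 0.34, edgeR adjusted p = 0.00547). In the authors' deposited table LysC had 1.47 on the log2 scale (SE 0.31, adjusted p = 0.000342), against 2.21 (SE 0.43) with DESeq2 here. Every member lay nearer to 0 in the deposited values, LysX at -0.61 against -0.91, and LysE hardly, at -0.65 against -0.67. Shrinkage gives this pattern, but whether the deposited values were shrunken is not stated.

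**Figure D2:**
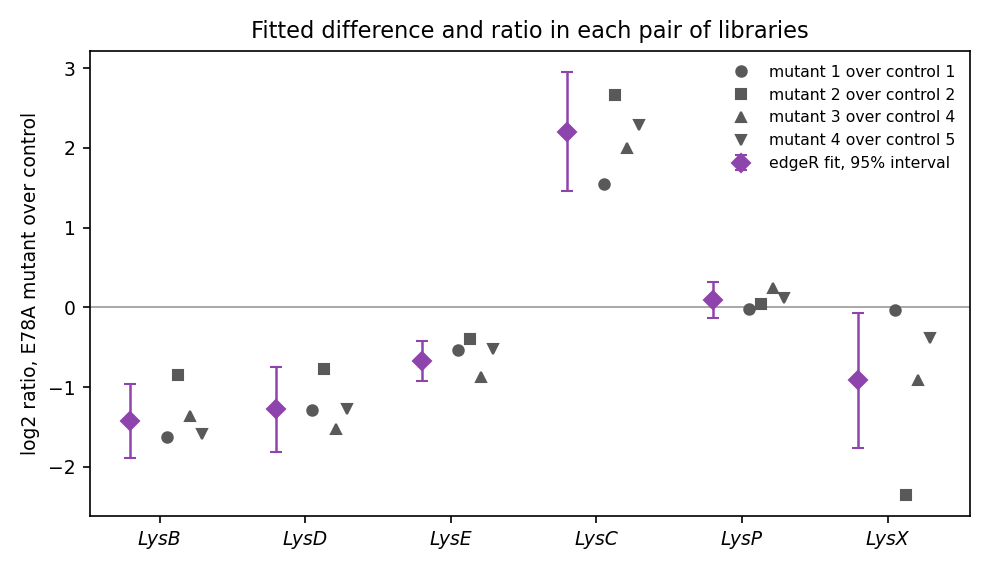
Log2 ratio, E78A mutant over control, of the 6 tested lysozyme genes: the edgeR fit with its unadjusted 95% interval (diamonds) and the CPM ratio in each of the 4 pairs of libraries that share a replicate number in the authors' sample sheet (grey). LysB, LysD, LysE and LysX lie below 0 and LysC above 0 in all 4 pairs, the first LysX ratio at -0.026.

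The directions of the 4 called members held in each of the 4 pairs of libraries given by the replicate numbers of the authors' sample sheet. In the order of the mutant replicates, the log2 ratios of LysC were 1.54, 2.67, 2.00 and 2.29. Those of LysD were -1.29, -0.77, -1.52 and -1.28, those of LysB -1.62, -0.84, -1.37 and -1.59, and those of LysE -0.53, -0.40, -0.87 and -0.52. The pair of mutant replicate 2 had the smallest fall of all 3 midgut genes and the largest rise of LysC.

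LysC and LysD lie end to end on opposite strands, and their ratio parted the genotypes more widely than either gene. LysC stood at 20.4%, 27.5%, 32.4% and 23.6% of LysD in the mutants, against 2.87%, 2.54%, 1.72%, 2.83% and 2.00% in the controls. The mean ratio was 26.0 ± 5.19% in the mutants (SD, n = 4) and 2.39 ± 0.513% in the controls (SD, n = 5), a 10.9-fold difference. LysC was called higher and LysD lower, so a wider gap in their ratio follows from these 2 calls and adds no evidence. The ratio is given as a description because the pair was chosen after its values were seen. Of the summed CPM of LysB, LysC, LysD and LysE, LysC made up 10.6% to 17.8% in the mutants and 1.09% to 2.02% in the controls. The sum of these 4 genes was lower in every mutant library, at 99.0 to 172 CPM, against 200.5 to 379 CPM in the controls. Whether reads moved between these genes was not tested.

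**Figure D3:**
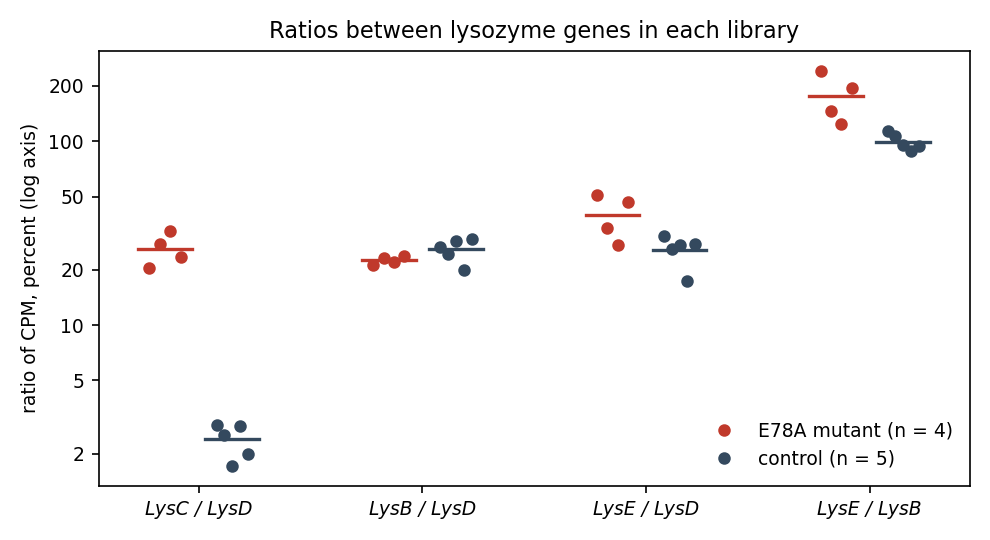
Ratio of CPM between pairs of lysozyme genes, in percent on a log axis, 1 point per library with the mean as a bar, E78A mutants (n = 4) left of controls (n = 5). LysC / LysD is above 20% in every mutant library and below 3% in every control library, LysE / LysB is also higher in all mutant libraries, and the other 2 ratios overlap between groups.

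Around their group means LysC and LysD nonetheless varied together. Over the 9 libraries, after the mean of its own group was taken from each value of log2(CPM + 0.1), the deviations of LysC and LysD had a Pearson r of 0.89 and a Spearman rho of 0.85. LysB and LysD had r = 0.92 (rho = 0.87), and LysB and LysC r = 0.75 (rho = 0.60). LysE followed less closely, with r = 0.64 to LysD and 0.30 to LysC. LysP had r between 0.68 and 0.71 to LysB, LysC and LysD, while LysX had between -0.16 and 0.25 to the same genes. Some of these values came mainly from 1 genotype. For LysP with LysB, LysC and LysD, r was 0.98 or more over the 4 mutants and between 0.24 and 0.39 over the 5 controls. For LysB with LysC it was 0.98 over the mutants and 0.43 over the controls, and for LysE with LysB 0.43 over the mutants and 0.92 over the controls. LysB and LysD had 0.99 over the mutants and 0.87 over the controls. These are descriptions over 9 libraries that share their depth and composition, and genes that can trade reads are not independent.

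**Figure D4:**
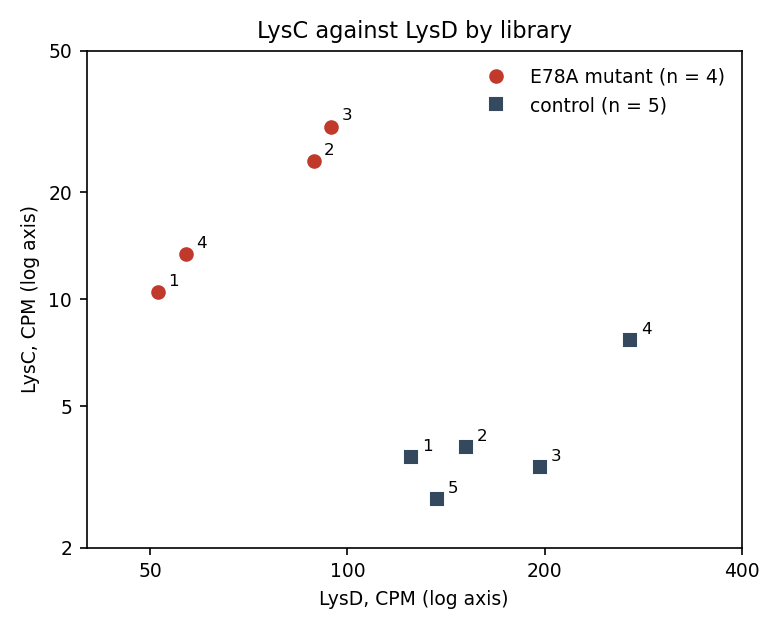
LysC against LysD, both in CPM on log axes, with 1 point per library labelled by its replicate number, E78A mutants as circles (n = 4) and controls as squares (n = 5). The mutants lie higher and to the left, from 10.5 to 30.6 CPM of LysC, and in both groups the libraries with the most LysD tend to have the most LysC, with r = 0.99 over the 4 mutants and 0.81 over the 5 controls.

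LysP, the gene known from the adult salivary gland, was at like levels in both genotypes. It held 106, 139, 142 and 118 CPM in the mutants, against 107, 135, 121, 120 and 108 CPM in the controls, and the groups overlapped. The log2 fold change was 0.094 (SE 0.10, edgeR adjusted p = 0.705). Its 95% interval, -0.13 to 0.32, leaves out falls as large as those of LysB, LysD and LysE. LysB, LysD and LysE together stood at 83.9%, 100%, 99.3% and 81.9% of LysP in the mutants, against 185%, 169%, 254%, 309% and 199% in the controls, a ratio taken within a library and thus free of the scaling between libraries. LysB, LysD and LysE are the members called lower, so this ratio is a description and was not tested.

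LysX was at 10.8, 8.32, 12.5 and 11.003 CPM in the mutants, against 10.9, 42.4, 9.00, 23.4 and 14.4 CPM in the controls. The controls were spread widely, with replicates 2 and 4 high, and the groups overlapped. In the 4 pairs of the sample sheet the mutant was the lower one each time, with log2 ratios of -0.026, -2.35, -0.91 and -0.39, and the fit with the replicate block did not call LysX either (-0.93, edgeR adjusted p = 0.132). The log2 fold change was -0.91 (SE 0.39, edgeR adjusted p = 0.294), and -0.44 without control replicate 2. LysS had 18 counts over the 4 mutants and 38 over the 5 controls, which is at most 0.398 CPM in any mutant library and 0.559 CPM in any control library, and no difference was detectable at this depth. DESeq2, which did not filter it, gave -0.67 (adjusted p = 0.691).

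Compared per kilobase of exon, the members fell into a different order in the 2 genotypes. In the mutants LysP led with 205 ± 28.5 CPM per kb, followed by LysD (152 ± 45.7), LysC (81.5 ± 38.9), LysE (46.8 ± 3.32), LysB (26.9 ± 8.23), LysX (18.9 ± 3.06) and LysS (0.531 ± 0.233). In the controls LysD led with 367 ± 123 CPM per kb, followed by LysP (192 ± 18.7), LysE (74.6 ± 11.9), LysB (72.3 ± 16.7), LysX (35.5 ± 24.2), LysC (17.5 ± 8.08) and LysS (0.847 ± 0.283). In the mutants the libraries of LysP and LysD, LysD and LysC, LysC and LysE, and LysB and LysX overlapped. In the controls those of LysE and LysB, LysB and LysX, and LysX and LysC overlapped, while LysD lay above LysP and LysP above LysE in every library. LysC is short beside a usual library fragment, so its level per length is uncertain. Those of LysB, LysD and LysE, and their places in the order, are uncertain too, because the split of counts between near-identical genes is not known. The host gene mwh was at 3.90 ± 0.314 CPM per kb of exon in the mutants and 4.04 ± 0.809 in the controls.

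The summed CPM of the 7 members was 216, 312, 326 and 239 in the mutants, against 318, 410, 441, 523 and 342 in the controls, and the highest mutant library reached above the lowest control library. The means were 273 ± 54.1 CPM in the mutants and 407 ± 81.9 CPM in the controls, 1.49-fold lower in the mutants. Without LysC the sums were 205 to 296 CPM in the mutants and 315 to 516 CPM in the controls and did not overlap. LysC is the only member called higher and its values were known, so this sum is a description. LysP made up 43.5% to 49.3% of the family in the mutants and 23.0% to 33.5% in the controls, and LysD 23.7% to 28.9% in the mutants and 37.04% to 51.7% in the controls. In RNA of whole flies, fewer cells of a type and less RNA per cell cannot be told apart.

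Genes around the cluster were looked at for a difference shared by the whole stretch. Within 50 kb of the first and last lysozyme gene, 21 other genes are annotated and 18 were tested. None of them was called by edgeR, 3 had an unadjusted p under 0.05, and DESeq2 called 1, CG9192, lower. The 3 were CG33965 (-0.58), CG9192 (-0.999) and Klp61F (-0.48). All 3 were lower in the mutants and lie to the right, 4644 to 13330 bases from the cluster. Whether they differ together was not tested. Their median log2 fold change was -0.092. The share of all tested genes with an unadjusted p under 0.05 was not worked out, so such counts are descriptions here and below. The nearest tested genes to the left, Trh (a tryptophan hydroxylase, which makes the precursor of serotonin), CG13912 and bab2 (a transcription factor of limb and abdomen patterning), had 0.21, -0.084 and 0.14. Those to the right, CG33965, CG33966 and CG9194, had -0.58, 0.098 and -0.18. Of the genes between or over the members, mwh had -0.051 (SE 0.14, edgeR adjusted p = 0.896), at 18.5 ± 1.49 CPM in the mutants and 19.2 ± 3.84 CPM in the controls. A difference in the DNA of the cluster between the stocks, which could alter how reads are assigned to near-identical genes, cannot be told apart from a difference in expression with these counts.

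**Figure D5:**
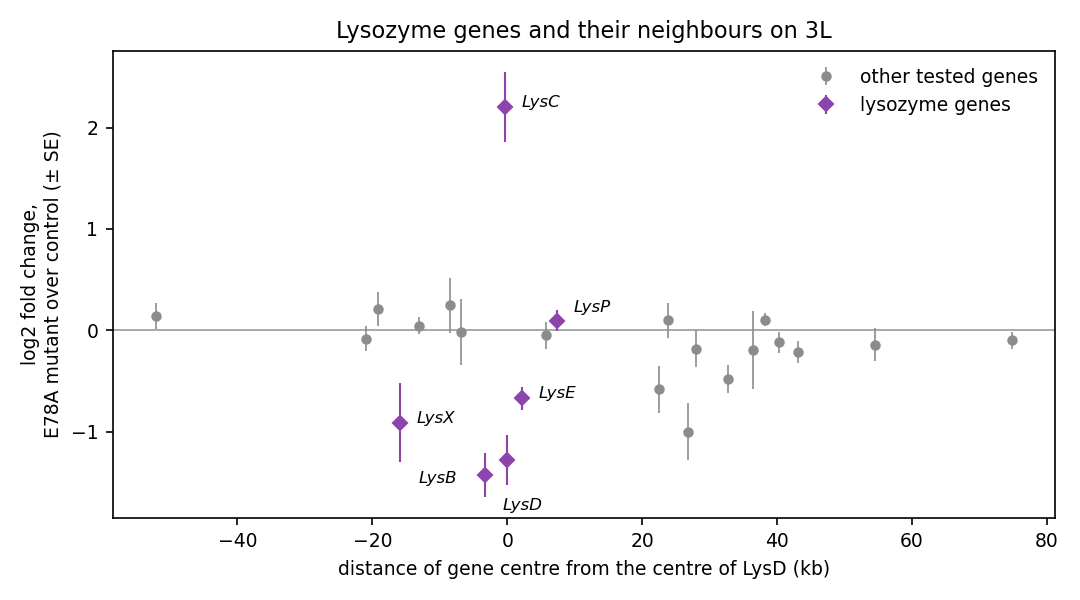
Log2 fold change, E78A mutant over control, with its SE, of the 6 tested lysozyme genes (diamonds) and the 18 other tested genes within 50 kb of the cluster (grey), against the distance of the gene's centre from that of LysD in kb. LysC stands at 2.20 and LysB at -1.43, while the 18 other genes, in grey, lie between -0.999 and 0.25.

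The lysozyme genes outside the cluster did not pass the test. Of 11 such genes listed, 10 were in the count table and 9 tested, with 0 called by edgeR or DESeq2 and 1 at an unadjusted p under 0.05, and a median log2 fold change of 0.13. The smallest p values were those of CG6435, at 25.3 ± 2.11 CPM in the mutants and 21.1 ± 1.63 CPM in the controls (0.26, SE 0.09, edgeR adjusted p = 0.182), and CG6429 (0.21, SE 0.13, edgeR adjusted p = 0.482). The summed level of the 10 genes was 237 to 292 CPM in the mutants and 222 to 296 CPM in the controls.

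Genes that handle peptidoglycan in other ways were likewise without a call. Of the amidases, which cut the peptide from the sugar backbone, 6 were listed, 5 were in the count table and 3 were tested. These had 0 calls by edgeR or DESeq2 and 0 unadjusted p under 0.05, and PGRP-SB1 had 0.63 (SE 0.39) and PGRP-LB 0.11 (SE 0.12). Among 16 genes of the Imd pathway, which senses peptidoglycan, edgeR and DESeq2 called 0, with 2 at an unadjusted p under 0.05. The caudal gene cad, a regulator of gut immune genes, had -0.23 (SE 0.08, edgeR adjusted p = 0.206) and Diap2, a ubiquitin ligase of the pathway, 0.18 (SE 0.07, edgeR adjusted p = 0.23). Antimicrobial peptide genes, the targets of that pathway, summed to 763, 99.8, 129 and 145 CPM in the mutants, against 113, 160, 136, 133 and 156 CPM in the controls. Mutant replicate 1 alone stood above the controls. Of the 12 tested, 0 were called by edgeR or DESeq2 and 6 had an unadjusted p under 0.05, with DptA (2.95, SE 0.99) and AttA (1.55, SE 0.58) first. Without mutant replicate 1, LysB, LysC, LysD and LysE kept their calls (edgeR adjusted p = 0.01, 0.00324, 0.0499 and 0.0274), LysD only just. Whether the antimicrobial peptide level bears on the lysozyme values was not tested.

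GATAe, a transcription factor that keeps the identity of the adult midgut, was at 22.4, 23.8, 23.2 and 24.4 CPM in the mutants, against 24.6, 39.9, 28.2, 30.2 and 26.9 CPM in the controls. The groups did not overlap, but the difference did not pass (-0.35, SE 0.13, edgeR adjusted p = 0.206). None of the 7 midgut transcription factors listed was called by edgeR or DESeq2. Of these, 4 had an unadjusted p under 0.05 with edgeR, a count with no share over all tested genes to set it beside.

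Enzyme genes of the midgut enterocyte, the absorptive and secretory cell of the gut, held 1 call in each direction. Of 30 listed, gammaTry and deltaTry were not in the count table. The other 28 were, 0 of them at 0 in all libraries, and 27 were tested. Jon99Ciii, a serine protease, was lower (-1.11, SE 0.25, edgeR adjusted p = 0.0494) and Amy-d, an amylase, higher (1.41, SE 0.19, edgeR adjusted p = 0.00195). DESeq2 called 3 of them, and 8 had an unadjusted p under 0.05 with edgeR. With the replicate block, which called 3.89% of all tested genes, 9 were lower and 2 higher. The median log2 fold change was -0.29, and 19 were negative, against 6705 of the 13274 genes tested in all. Their summed level was 15572, 14195, 10898 and 9095 CPM in the mutants, against 14898, 14695, 13771, 13897 and 11185 CPM in the controls, so the groups overlapped and mutant replicate 1, with the least LysD, had the most. As a percentage of that sum, LysB, LysD and LysE together were at 0.569%, 0.982%, 1.29% and 1.06% in the mutants, against 1.32%, 1.55%, 2.23%, 2.67% and 1.93% in the controls, without overlap. This too is a description, because the members called lower make up the numerator. Deviations of the members from their group means had correlations between -0.15 and 0.21 with that sum over the 9 libraries.

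Markers of other cells of the gut and its glands showed no call. Copper cell genes, of the acid-secreting stretch of the midgut, summed to 52.7 to 74.9 CPM in the mutants and 53.4 to 61.4 CPM in the controls, with log2 fold changes of 0.48 for the proton pump subunit Vha100-4 and 0.43 for the homeobox gene lab. Enteroendocrine genes, of the hormone cells, summed to 303 to 361 CPM in the mutants and 316 to 344 CPM in the controls, with -0.16 for pros and -0.30 for Mip. The salivary gland genes fkh, sage and CrebA summed to 130 to 177 CPM in the mutants and 132 to 141 CPM in the controls, with -0.33 for sage and 0.17 for fkh, while the larval glue genes Sgs3 and Eig71Ee are not among the listed genes. DESeq2 also called 0 genes in these 3 lists, and 2 copper cell genes and 1 salivary gland gene had an unadjusted p under 0.05 with edgeR. With the replicate block 1 copper cell gene was higher. Fat body markers summed to 3307 to 5290 CPM in the mutants and 4159 to 6106 CPM in the controls, haemocyte markers to 435 to 598 CPM in the mutants and 435 to 658 CPM in the controls, and male accessory gland markers to 4913 to 6481 CPM in the mutants and 4253 to 8207 CPM in the controls, with 0 calls by edgeR or DESeq2 and 0 unadjusted p under 0.05. The smallest p values there were those of apolpp (-0.21) and Yp1 (-0.63) in fat body, Hml (-0.32) and NimC1 (0.20) in haemocytes, and Acp26Ab (0.17) and Acp76A (-0.28) in the accessory gland. The fat body sum was mostly apolpp, with 4273 of a mean 4436 CPM in the mutants and 4955 of 5088 CPM in the controls. Of the 7 fat body genes 5 were tested. Yp1, a yolk protein gene of females, had few counts, at 0.99 ± 0.617 CPM in the mutants and 1.54 ± 0.675 CPM in the controls. With the accessory gland sum at 4253 CPM or more in every library, these are levels of male flies, though no label gives the sex. With the replicate block 1 fat body and 1 haemocyte gene were lower. The part of these cells in the lysozyme values was not tested.

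Among 10517 genes at 5 CPM or more on average, those whose deviations from the group means were most like those of the summed lysozymes over the 9 libraries were Ddr (r = 0.95), Reep1 (0.94), Srp72 (0.94), Haspin (0.94) and dmGlut (0.94). In all, 14 genes had r above 0.9. None of the 5 was called in the comparison of the genotypes, with log2 fold changes of -0.37, 0.00126, -0.00755, -0.12 and -0.21 in the same order.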

How the data were processed

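Strand-keeping poly(A) libraries were read for 51 cycles from both ends, per the labels' protocols. STAR 2.6.1b, featureCounts 1.6.3, cutadapt 1.16, DESeq2 1.20.0 and 1.22.2, and the builds BDGP6 and dm6 are named without roles, per the submitters' processing notes. The deposited counts per gene are whole numbers with no normalization. The authors' table of their comparison holds a mean normalised signal, log2 fold changes and p-values per the file headers. It was set beside the new fits for the calls and log2 fold changes of the members. The sources used here do not give the strand setting or the handling of multiply mapping reads.

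The quasi-likelihood test of edgeR 4.0.16 (R 4.3.3) was run on the counts with TMM factors, filterByExpr at a minimum count of 10 and genotype alone in the model, with Benjamini-Hochberg adjustment over all 13274 tested genes and a threshold of 0.05. CPM use TMM-scaled library sizes. Intervals are unadjusted, at 95%. Sums and ratios have no test. Libraries were grouped by title and replicates numbered in accession order. The sample sheet's numbers pair 4 mutant with 4 control libraries (mutant replicates 1, 2, 3 and 4 with control replicates 1, 2, 4 and 5), whose deviations correlated at 0.207, 0.214, 0.210 and 0.277, each above 0.1 and above any other number (at most 0.0402). The fit was also run on simulated data, but the outcome is not given here and lends the calls no support.

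The members and the 12 gene lists were chosen with earlier results of these data known. Genes named are all members, the called or else the 2 first genes by p of the lists, the 3 nearest tested genes on each side, and the 5 most alike. Neighbours with an unadjusted p under 0.05 are named as well. As alternatives, DESeq2 1.42.0 was run, and edgeR with upper-quartile or RLE factors, other filters, each library left out, grouping by tag, the 5 libraries whose labels agree, and a replicate block. No protein or promoter sequence was used here.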

Additional observations from a re-analysis of the deposited data

Results flagged for a closer look

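In the controls LysC was highest in replicate 4, at 7.67 CPM, far from the other 4 libraries. LysD was highest in that library too, at 270.5 CPM, and LysC stood there at 2.83% of LysD, within the control range of 1.72% to 2.87%. Without that library the log2 fold change of LysC was 2.54. In the mutants LysE was highest in replicate 2, at 30.0 CPM, apart from the other 3. Without that library the log2 fold change of LysE was -0.72. Chance marks about 1 in 20 groups in this way, and 34 groups of values were looked at.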

How the results depend on the processing

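Over 16 alternatives that keep the grouping by title, the 6 tested members kept the sign of their log2 fold change, and 90 of 96 values kept their side of the threshold. The 6 lost calls were those of LysB, LysC, LysD and LysE with the 5 libraries whose labels agree (2 mutants against 3 controls, 0 higher and 0 lower members called, log2 fold changes -1.42, 2.27, -1.17 and -0.63, in a fit that called 0.157% of all genes) and those of LysD without mutant replicate 4 or control replicate 3. Leaving out each library in turn gave -1.56 to -1.27 for LysB, 1.91 to 2.54 for LysC, -1.43 to -1.07 for LysD and -0.72 to -0.59 for LysE. The replicate block changed no call of a member. It gave -1.34 for LysB, 2.12 for LysC, -1.21 for LysD and -0.58 for LysE (edgeR adjusted p = 0.000438, 0.000251, 0.000357 and 0.00569). With libraries grouped by their genotype tag, edgeR called 0 genes in all, the members with 0 higher and 0 lower included. LysD then had 0.13, LysP -0.073 and the log2 ratio of the summed members was 0.00551, against -0.57 by title. By title that ratio ran from -0.67 to -0.47. CG9192 near the cluster was called lower with DESeq2 (-1.001, adjusted p = 0.0275) and without control replicate 4 (-1.18, edgeR adjusted p = 0.0153), which makes 0 to 1 neighbours called as libraries are left out. Without division by length, 2 members (LysB and LysE) changed places in the control order. The correlation of LysC and LysD ran from 0.82 to 0.96 without each library. The planned count of promoter motifs was not run. LysS is limited by depth, and the causes of these shifts were not tested.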

Other observations

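The authors' deposited table also marks genes as lower or higher in a second mutant, DHR393.48, whose libraries were not analysed here. In the authors' deposited table LysB, LysD, LysE and LysP carry the mark for lower in DHR393.48, as do 1750 genes, or 11.8% of those listed, and LysC, LysS and LysX carry none for that mutant. LysP thus has the mark for lower in that mutant and none for E7818.37, and LysC the mark for higher in E7818.37 alone. Whether both comparisons share their controls was not given in the sources used here, and the overlap was not tested.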
